A study of Mus musculus with 12 samples.

Results

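The question addressed here was whether CD11b-positive cortical cells of App NL-G-F and wild-type (WT) mice changed in the same way after treatment with rh Bri2 BRICHOS R221E. For each gene, the log2 change with treatment in WT mice was subtracted from that in App NL-G-F mice. The result is called the difference, and a negative difference means that treatment lowered the gene in App NL-G-F mice relative to its effect in WT mice. The contrast needs all group means, so all 12 of the 12 libraries entered it, 3 from each of 4 groups, and 15425 of the 55487 annotated genes had enough counts to be tested. The App NL-G-F mice were male and carry humanised *App* with familial mutations of Alzheimer disease as a knock-in, so that the gene is driven by its own promoter. From 9 months of age, mice of both strains were injected intravenously 24 times over 12 weeks with PBS (veh) or with 10 mg/kg of the chaperone, and were examined after another 4 weeks without injections. Cells were selected from papain-digested cerebral cortex with magnetic beads against CD11b, which microglia and other myeloid cells carry on their surface. Each group is represented by 3 mice, and libraries are named below by their group and replicate number.

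BRICHOS is a chaperone domain, found in Bri2 (encoded by *Itm2b*) and other proteins, that binds misfolding-prone peptides such as amyloid-β. Microglia are the resident macrophages of the brain, and around amyloid plaques they lose part of their homeostatic genes and gain lysosomal and lipid-handling genes. Astrocytes, ependymal cells with motile cilia, fibroblasts of the meninges, choroid plexus epithelium and vascular cells each express marker genes that microglia largely lack. In a bulk library, a lower level of such markers can come from fewer cells of a type or from less RNA per cell, and these cannot be told apart.

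Homeostatic microglial genes were abundant in all libraries, with a summed level of 46110 to 56080 CPM (counts scaled to a common library size) for 20 genes such as *Csf1r*, and all of them were detected in every group. Transcripts of other cells were also present. The summed level was between 952 and 7610 CPM for 25 astrocyte genes, between 3441 and 17360 CPM for 13 oligodendrocyte genes and between 970.2 and 9491 CPM for 14 choroid plexus genes. Total counts were between 12433402 and 17889654 per library, and 3 counts, the lowest level taken as detectable, corresponded to 0.168 to 0.241 CPM. The knock-in gene *App* was measured at 837, 702 and 623 CPM in WT veh libraries and at 549, 547 and 615 CPM in App NL-G-F veh libraries. These groups did not overlap, but the strain difference missed the threshold (log2 -0.34 ± 0.161 SE, adjusted p = 0.12), so *App* does not check the genotype labels.

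The difference had an unadjusted p-value under 0.05, which is how "called" is used below, in 2279 genes or 14.8% of those tested. In 1472 of them (9.54% of the tested genes and 64.6% of the called ones) treatment lowered the gene in App NL-G-F relative to WT mice, and in 807 (5.23%) the difference was positive. The negative and the positive differences were not alike in size or level. Among the genes with a negative difference, the median absolute difference was 1.40 on the log2 scale, 1007 genes (68.4%) exceeded 1, and the median level was 5.06 CPM. Among those with a positive difference, the median was 0.262, 32 genes (3.97%) exceeded 1, and the median level was 65.8 CPM. The median difference of all tested genes was 0.01. After adjustment over all tested genes, 1 gene (0.00648%), *Cald1*, passed at an adjusted p-value under 0.05, whereas the next 16 genes tied at 0.134. All other calls below pass at the unadjusted threshold and not after adjustment. The number of positive differences was 520 without WT veh replicate 2. The number after adjustment was 0 without that library or without App NL-G-F BRICHOS replicate 3, 65 without WT veh replicate 3 and 90 without App NL-G-F veh replicate 3.

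**Figure D1:**
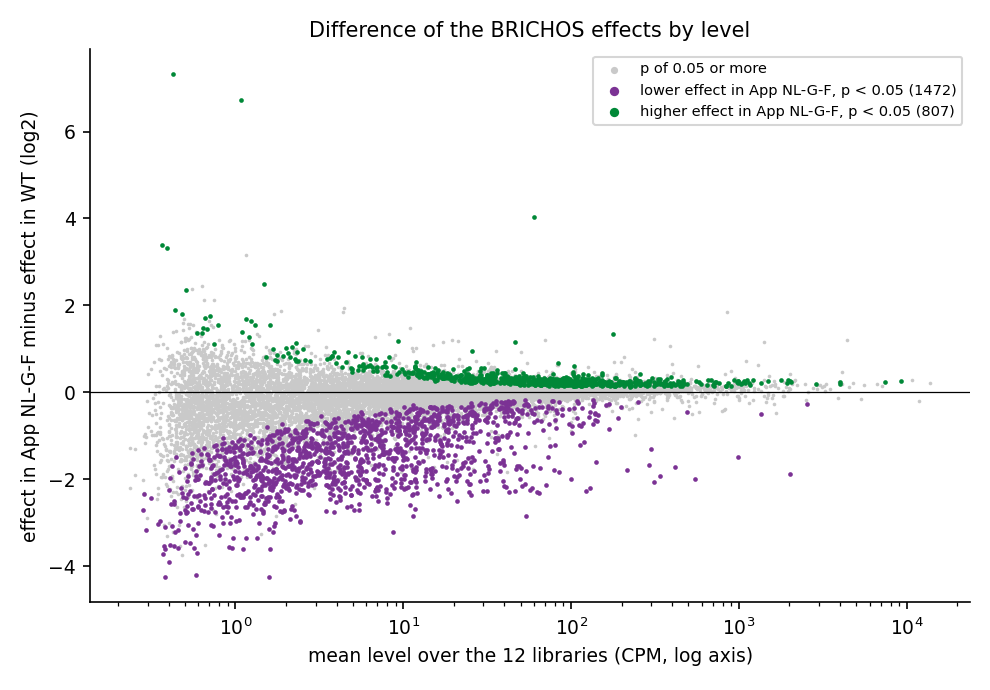
The mean level of each tested gene over the 12 libraries (CPM, log axis) is plotted against its difference (effect in App NL-G-F minus effect in WT, log2). The 1472 called genes below 0 spread over large differences at low levels, and the 807 called genes above 0 lie close to 0 at high levels.

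Genes that respond in opposite ways were defined as those whose treatment effect was called in each strain on its own, with opposite signs. In WT mice, treatment raised 1010 genes (6.55%) and lowered 745 (4.83%), and in App NL-G-F mice it raised 490 (3.18%) and lowered 1183 (7.67%). A total of 180 genes (1.17%) rose in treated WT mice and fell in App NL-G-F BRICHOS libraries, and 29 (0.188%) did the reverse. By the definition, these genes have effects of opposite sign with an unadjusted p-value under 0.05 in each strain, whatever their size. The following values describe them without a test. The 180 genes had median absolute effects of 0.816 in WT and 0.886 in App NL-G-F animals and a median level of 5.37 CPM. The 29 genes had median absolute effects of 0.184 and 0.151 and a median level of 73.8 CPM. Most of the negative differences were not of this kind: 669 of the 1472 genes were called in App NL-G-F mice alone, 414 in WT mice alone and 208 in neither. Of the 807 positive ones, 194 were called in App NL-G-F mice alone, 364 in WT mice alone and 220 in neither. Of these opposite genes, 0 had an adjusted p-value under 0.05 in both strains. The count of 180 was 104 without WT veh replicate 2, 95 without WT BRICHOS replicate 3 and 116 without App NL-G-F veh replicate 1. The count of 29 was 47 without WT veh replicate 1, 18 without WT veh replicate 2, 19 without App NL-G-F veh replicate 2, 54 without App NL-G-F veh replicate 3 and 18 without App NL-G-F BRICHOS replicate 3.

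**Figure D2:**
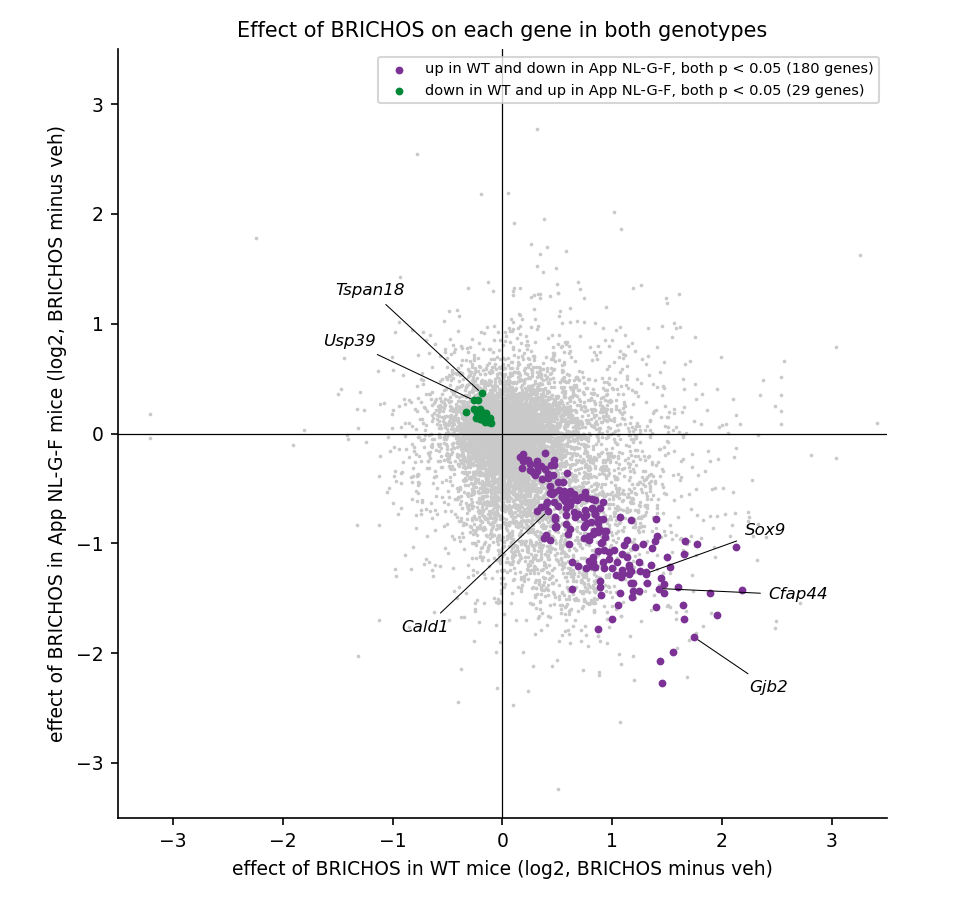
The log2 effect of BRICHOS in WT mice (x axis) is plotted against that in App NL-G-F mice (y axis) for each tested gene, with 5 genes outside the axis limits of 3.5. The 180 genes raised in WT and lowered in App NL-G-F mice are purple and lie at the lower right, and the 29 with the reverse pattern are green and lie near the centre at the upper left.

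Separation of the libraries was counted on its own over all 15425 tested genes, whether or not their effects were called. In 179 genes (1.16%), treated libraries were all above the veh-treated ones in WT and all below them in App NL-G-F mice. The reverse separation was found in 118 genes (0.765%). These sets are not those with called opposite effects, and how many genes they share was not counted. *Sox9* and *Vcan* belong to the 180 but not to the 179. Treated and veh-treated libraries overlapped in App NL-G-F mice for *Sox9* and in WT mice for *Vcan*. Of the 180 genes, 176 (97.8%) were protein-coding, against 89.3% of the tested genes, and their median span in the genome was 41.7 kb against 22.1 kb. Of these 180, 16 belonged to the gene lists described below (8.89%, against 4.39% of all tested genes): *Agt*, *F3* and *Sox9* of astrocytes, *Cfap44*, *Dnah2* and *Tekt1* of motile cilia, *Dcn*, *Fbln1*, *Fmod*, *Islr* and *Mgp* of fibroblasts, *Col1a2*, *Vcan*, *Cald1*, *Axin2* and *Hey2*.

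*Cald1* encodes caldesmon, an actin- and calmodulin-binding protein abundant in smooth muscle and other contractile cells. The gene (ENSMUSG00000029761) lies at chr6:34598500-34775473 (GRCm38, plus strand), where 3 other annotated genes overlap it on the other strand. Its level was 27.8, 26.2 and 27.3 CPM in WT veh, 37.0, 34.1 and 37.2 in WT BRICHOS, 18.3, 20.4 and 18.8 in App NL-G-F veh and 12.8, 10.8 and 11.6 in App NL-G-F BRICHOS libraries. No group overlapped another. Treatment raised *Cald1* in WT mice (log2 0.41 ± 0.0769 SE) and lowered it in App NL-G-F mice (-0.71 ± 0.0815), a difference of -1.12 ± 0.112 (adjusted p = 0.00834). The adjusted p-value was 0.0574 without WT veh replicate 2 and 0.0531 without App NL-G-F BRICHOS replicate 3. It was 0.343 with the mean level of the astrocyte genes as a covariate and 0.211 with that of the ciliary genes, at differences of -1.04 and -1.15.

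The other genes raised in WT and lowered in App NL-G-F mice included cytoskeletal and scaffold proteins, receptors and a chemokine. Intermediate filament protein *Vim* was measured at 72.3, 79.2 and 77.5 CPM in WT veh, 111, 97.2 and 110.0 in WT BRICHOS, 142, 156 and 139.7 in App NL-G-F veh and 104, 119 and 136 in App NL-G-F BRICHOS libraries. The treated and veh-treated libraries of each strain did not overlap, and the difference was -0.76 ± 0.129 (adjusted p = 0.134). *Ahnak*, which encodes a giant scaffold protein, was 52.1, 53.0 and 48.4 CPM in WT veh, 71.4, 61.1 and 58.8 in WT BRICHOS, 30.7, 37.5 and 26.5 in App NL-G-F veh and 20.9, 18 and 19 in App NL-G-F BRICHOS libraries. It was thus lower in App NL-G-F mice under both injections, and the gap widened with treatment (difference -1.02 ± 0.168, adjusted p = 0.134). *Syne1*, encoding the nuclear envelope protein nesprin-1, had a difference of -1.26 ± 0.217, *Itsn1*, an endocytic scaffold, one of -0.71 ± 0.116, and *Kalrn*, a guanine nucleotide exchange factor, one of -1.34 ± 0.24.

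Among receptors and ligands, *Lrp8*, the receptor for reelin and apolipoprotein E, was at 15.3, 13.1 and 16.7 CPM in WT veh, 17.7, 20.7 and 21.1 in WT BRICHOS, 15.6, 18.7 and 15.0 in App NL-G-F veh and 9.36, 7.17 and 9.52 in App NL-G-F BRICHOS libraries. The veh-treated strains overlapped, the treated strains were far apart, and the difference was -1.32 ± 0.199 (adjusted p = 0.134). *Cx3cl1*, encoding fractalkine, the neuronal and endothelial ligand of the microglial receptor Cx3cr1, was 18.6, 19.6 and 15.3 CPM in WT veh, 20.5, 25.5 and 23.6 in WT BRICHOS, 7.90, 9.39 and 8.22 in App NL-G-F veh and 5.29, 3.33 and 4.61 in App NL-G-F BRICHOS libraries. Every App NL-G-F library was below every WT library, and the strain gap was larger with treatment (log2 -2.39 ± 0.169) than with veh (-1.07 ± 0.16). The difference of *Antxr1*, a receptor for extracellular matrix, was -1.75 ± 0.313, that of *Plch1*, a phospholipase C, -2.64 ± 0.465, and that of *Sobp* -2.25 ± 0.377. *Gjb2*, the gap junction protein connexin 26, had the widest swing of the 12 genes named from the 180. It was at 0.753, 0.949 and 0.447 CPM in WT veh, 2.33, 2.76 and 2.29 in WT BRICHOS, 3.5, 3.02 and 1.11 in App NL-G-F veh and 0.968, 0.384 and 0.755 in App NL-G-F BRICHOS libraries. Treatment therefore left each strain near the level of the other strain with veh (difference -3.61 ± 0.63, adjusted p = 0.134).

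The 29 genes lowered in WT and raised in App NL-G-F mice moved by small amounts with little spread. *Usp39*, a component of the spliceosome, was at 33.7, 34.9 and 33.5 CPM in WT veh, 27.7, 29.9 and 27.9 in WT BRICHOS, 26.4, 26.8 and 25.4 in App NL-G-F veh and 31.1, 33.0 and 32.8 in App NL-G-F BRICHOS libraries. The groups of each strain were fully separated (difference 0.56 ± 0.0823, adjusted p = 0.134). *Tspan18*, a tetraspanin, was 47.6, 49.4 and 51.2 CPM in veh-treated WT and 44.3, 45.5 and 40.4 in treated WT mice, but 10.5, 9.91 and 10.8 in veh-treated and 13.5, 14.5 and 12.2 in App NL-G-F BRICHOS libraries. It thus rose from a level far below that of WT mice (difference 0.55 ± 0.109). *Ddx31*, an RNA helicase, had a difference of 0.53 ± 0.12, *Rnf103*, a ubiquitin ligase, 0.39 ± 0.0871, and *Rps6kc1*, a kinase-like protein, 0.37 ± 0.0737. The values were 0.34 ± 0.0716 for *Stard3*, a cholesterol transporter of late endosomes, 0.34 ± 0.0789 for *Ctr9*, a subunit of the PAF1 transcription elongation complex, and 0.25 ± 0.056 for *Ptk2b*, a tyrosine kinase. *Ctr9* was not called with the mean level of the ciliary genes as a covariate (0.22).

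**Figure D3:**
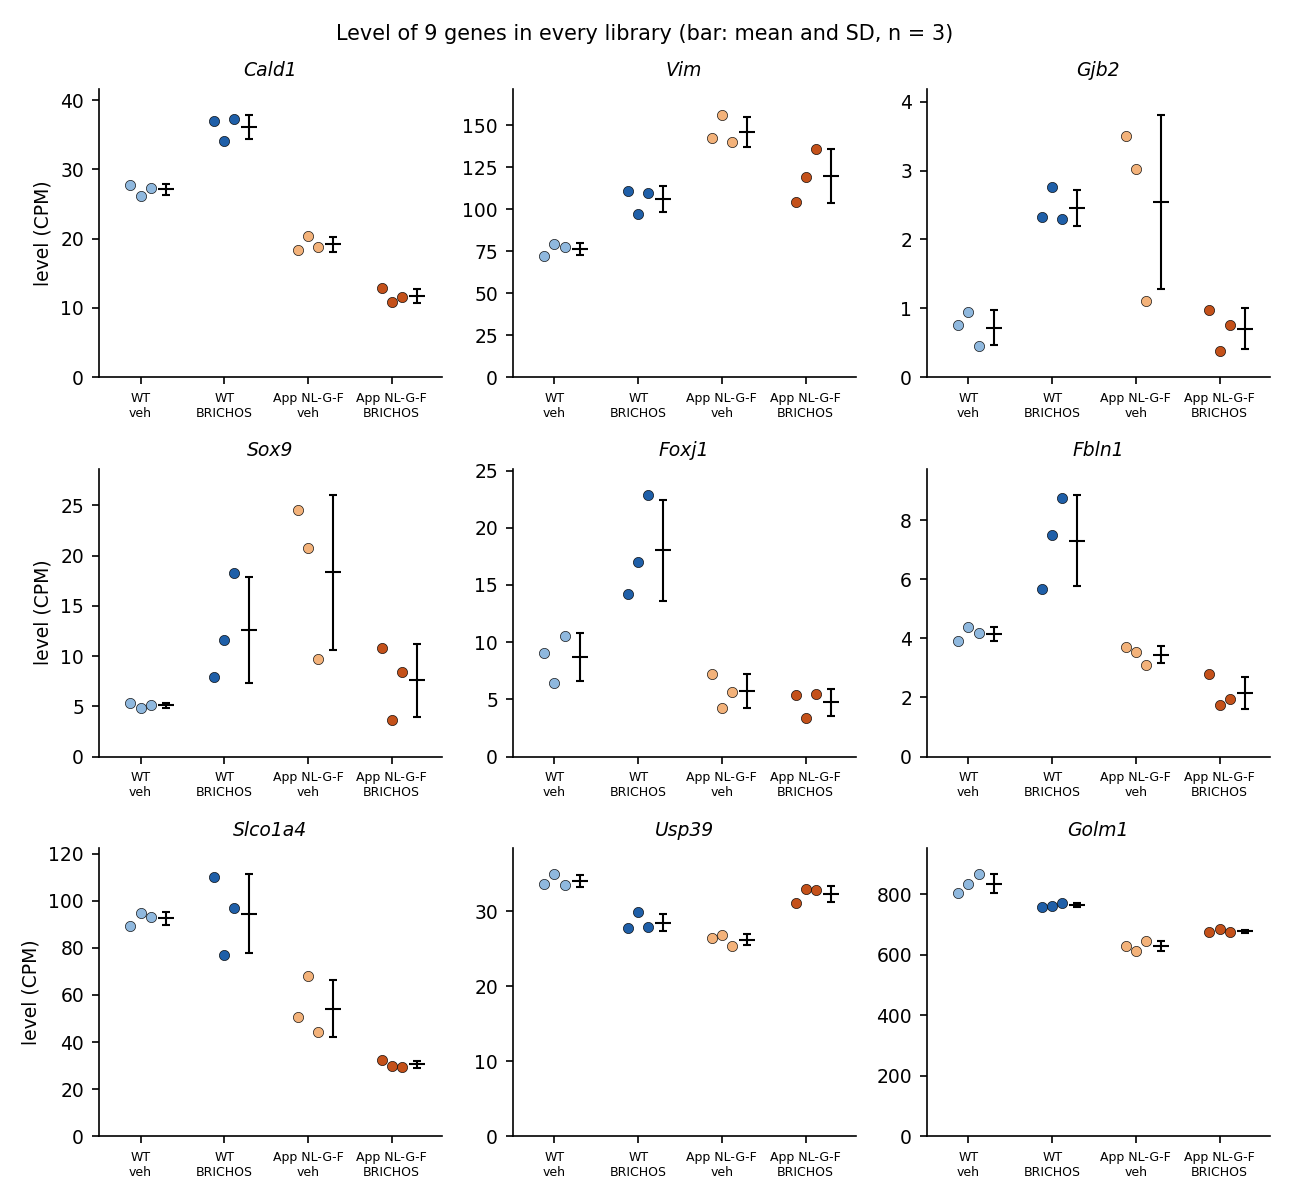
Level (CPM, linear axes from 0) of 9 genes in each of the 12 libraries, with the mean and SD (n = 3) of each group beside the points. *Cald1*, *Vim*, *Gjb2*, *Sox9* and *Fbln1* rose in treated WT and fell in App NL-G-F BRICHOS libraries, *Foxj1* rose in WT mice, *Slco1a4* fell in App NL-G-F mice, and *Usp39* and *Golm1* show the reverse pattern.

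For some genes the strain difference itself changed sign. In 59 genes (0.382%), App NL-G-F mice were higher than WT mice with veh and lower with treatment, each with a called strain difference, and 29 of these were also among the 180. The reverse was found in 11 genes (0.0713%). *Gjb2*, *Itsn1*, *Plch1*, *Sobp* and *Agt* belonged to the first group and *Usp39* and *Rnf103* to the second. *Ide*, which encodes the insulin-degrading enzyme, a protease of amyloid-β, also belonged to the 59 and was picked out after its values were seen. It was at 46.2, 50 and 47.5 CPM in WT veh, 65.8, 68.6 and 83.9 in WT BRICHOS, 60.0, 62.9 and 61.2 in App NL-G-F veh and 58.4, 59.4 and 57.8 in App NL-G-F BRICHOS libraries. The effect in WT mice (0.60 ± 0.0807) made up nearly all of the difference (-0.67 ± 0.114, adjusted p = 0.134), since that in App NL-G-F mice was -0.07 ± 0.0806 (adjusted p = 0.822), although the libraries did not overlap.

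Astrocyte genes had the highest share of called members of all 29 lists. Of 25 genes, 24 (against 9.54% of all tested genes) had a called negative difference, with a median of -1.99. Treatment lowered all 25 in App NL-G-F mice (against 7.67% of all tested genes), with a median log2 effect of -1.38. It raised 3 in WT mice (against 6.55%), namely *Agt*, *F3* and *Sox9*, with a median of 0.61. With veh, 24 of the 25 were higher in App NL-G-F than WT mice (against 24.3%), by a median of 2.11. After treatment, 1 was higher (against 24.1%) and 2 were lower (against 26%), with a median of 0.15. *Sox9*, a transcription factor of astrocytes and their precursors, was at 5.34, 4.80 and 5.14 CPM in WT veh, 7.94, 11.6 and 18.3 in WT BRICHOS, 24.5, 20.8 and 9.71 in App NL-G-F veh and 10.8, 3.65 and 8.38 in App NL-G-F BRICHOS libraries. All treated WT libraries were above the veh-treated ones, whereas App NL-G-F veh replicate 3 lay within the range of the treated App NL-G-F libraries (difference -2.58 ± 0.597, adjusted p = 0.156). *Clu*, encoding the secreted chaperone clusterin, was 129, 124 and 190.3 CPM in WT veh, 164, 240.2 and 327 in WT BRICHOS, 814, 719 and 314 in App NL-G-F veh and 346, 124 and 261 in App NL-G-F BRICHOS libraries. The difference of -2.06 ± 0.579 combined a called App NL-G-F effect (-1.34 ± 0.411) with a WT effect that was not called (0.72 ± 0.409, adjusted p = 0.541).

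Other astrocyte genes showed the same arrangement of groups. Tissue factor (*F3*) had a difference of -1.96 ± 0.46, angiotensinogen (*Agt*) of -3.21 ± 0.822, the GABA transporter *Slc6a11* of -2.85 ± 0.93, the sodium pump subunit *Atp1b2* of -2.27 ± 0.682 and the zinc transporter *Slc39a12* of -1.59 ± 0.489. The 1 member without a call was *Gfap*, the intermediate filament protein of reactive astrocytes, which was picked out after its values were seen. It was measured at 34.5, 34.0 and 38.7 CPM in WT veh, 27.3, 35.5 and 26.0 in WT BRICHOS, 847, 712 and 324 in App NL-G-F veh and 394, 130.1 and 273 in App NL-G-F BRICHOS libraries. It fell in App NL-G-F mice (-1.24 ± 0.375) with no detectable change in WT mice (-0.27 ± 0.398), and the difference was -0.97 ± 0.544 (adjusted p = 0.43). *Gfap* was called without App NL-G-F veh replicate 3 (-1.29) or App NL-G-F BRICHOS replicate 1 (-1.37), and with no filter on low counts (-0.95). The mean log2 CPM of the list varied between libraries of a group. It was 7.26, 7.12 and 5.65 in veh-treated and 6.05, 4.56 and 5.51 in App NL-G-F BRICHOS libraries, and 4.87, 4.73 and 4.40 in veh-treated and 4.46, 5.54 and 5.72 in treated WT mice. In each strain, 1 library of a group therefore fell among those of the other. The number of called members was between 20 and 25 with any library left out. With the mean level of the ciliary genes as a covariate, 1 member was called, and the calls of *Sox9* (-1.81), *Clu* (-1.26), *Agt* (-1.88), *Slc6a11* (-2.14), *Atp1b2* (-1.9) and *Slc39a12* (-1.27) were lost.

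Genes of motile cilia changed mainly in WT mice. The list holds 76 genes for the axoneme, the microtubule and dynein core of motile cilia, and for its regulators, of which 64 were tested. Treatment raised 42 of the 64 in WT mice (against 6.55% of all tested genes) and lowered 7 in App NL-G-F mice (against 7.67%), and the difference was negative and called in 33 (against 9.54%). The medians were 1.16 in WT and -0.33 in App NL-G-F animals, with a median difference of -1.53. By role, 8 of 15 axonemal dynein chains, 5 of 10 docking, ruler and nexin-dynein regulatory proteins, 5 of 11 radial spoke and central pair proteins, 11 of 20 other axonemal proteins and 4 of 6 transcriptional regulators had a call, as did 0 of 2 assembly factors. *Mcidas*, a regulator of multiciliated cells, had no count in any library. These transcripts are rare in these libraries, with a median level of 1.74 CPM.

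*Foxj1*, the transcription factor that directs motile ciliogenesis, was at 9.04, 6.41 and 10.6 CPM in WT veh, 14.2, 17.0 and 22.9 in WT BRICHOS, 7.25, 4.27 and 5.63 in App NL-G-F veh and 5.36, 3.39 and 5.44 in App NL-G-F BRICHOS libraries. All treated WT libraries were above the veh-treated ones (1.06 ± 0.257), whereas the App NL-G-F groups overlapped (-0.28 ± 0.277, adjusted p = 0.783), for a difference of -1.34 ± 0.378 (adjusted p = 0.179). *Dnah2*, a heavy chain of inner arm dynein, was 2.88, 2.61 and 3.87 CPM in WT veh, 4.98, 5.58 and 6.75 in WT BRICHOS, 1.42, 2.23 and 2.59 in App NL-G-F veh and 1.29, 1.09 and 1.51 in App NL-G-F BRICHOS libraries. It is 1 of 3 ciliary genes with opposite effects called in both strains (difference -1.57 ± 0.365), with *Cfap44* (-2.84 ± 0.689) and *Tekt1* (-2.42 ± 0.745), which encode proteins of the axoneme. *Dnah6* had a difference of -1.82 ± 0.453, *Ccdc114*, a subunit of the outer dynein arm docking complex, -1.71 ± 0.442, and *Cfap52* -2.16 ± 0.61. *Dnah3* was at 0.137 to 0.415 CPM in veh-treated and 0.693 to 2.58 CPM in treated WT mice, and at 0 in App NL-G-F BRICHOS replicate 2, so that its difference (-4.21 ± 1.23) rests on few counts. With any library left out, 23 to 41 members had a call. With the mean level of the astrocyte genes as a covariate, 12 members had a call, and those of *Foxj1* (-0.87) and *Dnah3* (-1.16) were lost.

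Promoters of ciliary genes often hold an X-box, the motif bound by RFX transcription factors, 2 of which, Rfx2 and Rfx3, are in the list. The letters GTNNCCNNNGNAAC were searched on both strands of the RefSeq promoters (GRCm38.p6), each of 300 bases from 250 before to 50 after the start of a gene. A gene was counted if any of its promoters held the motif. The motif was in 13 of 55 tested ciliary genes with a promoter in the table (23.6%) and in 361 of 11359 tested genes (3.18%). Over all gene symbols in that table it was in 673 of 27025 (2.49%). It was in 0 of 21 astrocyte, 0 of 9 fibroblast, 0 of 22 collagen and 0 of 9 choroid plexus genes. The motif was also in 0 of 11 mural, 0 of 14 endothelial and 0 of 15 homeostatic microglial genes, and in 1 of 23 lysosomal genes (4.35%). Within the ciliary list, 6 of 28 genes with a called difference (21.4%) and 7 of 27 without one (25.9%) held it, so the motif marked the list but not the calls. Of the 180 genes raised in WT and lowered in App NL-G-F mice, 4 of 132 with a promoter (3.03%) held it, close to the share of all tested genes. The promoters of the 3 called ciliary genes with the lowest p-values among those with a motif are shown for their sequence, with the motif in capitals. The printed strand is that of the gene, so that a motif on the other strand reads as its reverse complement.

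Cfap44 (chr16:44394549-44394848, plus strand): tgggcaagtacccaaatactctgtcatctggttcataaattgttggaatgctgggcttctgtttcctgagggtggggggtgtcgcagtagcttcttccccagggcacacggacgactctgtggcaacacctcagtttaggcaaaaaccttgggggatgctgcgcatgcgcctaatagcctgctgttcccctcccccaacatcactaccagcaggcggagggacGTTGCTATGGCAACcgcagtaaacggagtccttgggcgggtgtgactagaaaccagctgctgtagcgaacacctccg
Ccdc114 (chr7:45923965-45924264, plus strand): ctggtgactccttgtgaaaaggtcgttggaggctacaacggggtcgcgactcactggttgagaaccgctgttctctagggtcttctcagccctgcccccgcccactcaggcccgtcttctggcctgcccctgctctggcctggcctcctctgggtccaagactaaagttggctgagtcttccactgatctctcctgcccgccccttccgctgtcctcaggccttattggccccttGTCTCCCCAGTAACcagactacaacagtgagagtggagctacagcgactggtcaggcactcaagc
Cfap206 (chr4:34730157-34730456, minus strand): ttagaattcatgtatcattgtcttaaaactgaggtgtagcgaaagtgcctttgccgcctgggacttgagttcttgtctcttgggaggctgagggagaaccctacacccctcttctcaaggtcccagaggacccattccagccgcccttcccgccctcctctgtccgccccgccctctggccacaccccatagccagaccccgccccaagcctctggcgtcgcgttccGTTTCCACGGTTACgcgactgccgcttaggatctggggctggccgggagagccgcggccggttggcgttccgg

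The first base of the motif lay 27, 15 and 23 bases before the start in *Cfap44*, *Ccdc114* and *Cfap206*. *Cfap44* was at 1.1, 1.36 and 3.43 CPM in WT veh, 3.59, 4.34 and 7.73 in WT BRICHOS, 1.49, 0.985 and 1.93 in App NL-G-F veh and 0.581, 0.384 and 0.680 in App NL-G-F BRICHOS libraries, with no overlap between the groups of a strain. *Ccdc114* was at 1.85, 1.42 and 2.16 CPM in WT veh, 3.65, 4.39 and 5.61 in WT BRICHOS, 3.5, 1.44 and 2.37 in App NL-G-F veh and 1.61, 1.86 and 2.19 in App NL-G-F BRICHOS libraries. Its App NL-G-F groups overlapped. *Cfap206*, chosen after its values were seen, was at 1.03, 0.593 and 3.20 CPM in WT veh, 2.08, 3.21 and 3.89 in WT BRICHOS, 0.971, 0.788 and 1.26 in App NL-G-F veh and 0.129, 0.256 and 0.604 in App NL-G-F BRICHOS libraries (difference -2.58 ± 0.889, adjusted p = 0.238). Here the App NL-G-F groups were separated and the WT groups overlapped.

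Fibroblast genes responded in opposite ways more often than those of any other list. Of 12 tested members of 14, treatment raised 7 in WT mice (against 6.55% of all tested genes) and lowered 5 in App NL-G-F mice (against 7.67%). The medians were 0.88 and -0.53. A called negative difference was found in 7 (against 9.54%), with a median of -1.27. The 5 with opposite effects called in both strains (against 1.17% of all tested genes) were *Fbln1*, *Islr*, *Mgp*, *Dcn* and *Fmod*. *Fbln1*, encoding the matrix glycoprotein fibulin-1, was at 3.90, 4.39 and 4.17 CPM in WT veh, 5.67, 7.49 and 8.76 in WT BRICHOS, 3.69, 3.54 and 3.11 in App NL-G-F veh and 2.78, 1.73 and 1.96 in App NL-G-F BRICHOS libraries. The treated libraries of each strain lay apart from the veh-treated ones (difference -1.49 ± 0.299, adjusted p = 0.153). The difference was -2.51 ± 0.521 for *Islr*, -1.28 ± 0.299 for matrix Gla protein (*Mgp*), -1.13 ± 0.311 for the proteoglycan decorin (*Dcn*), -2.08 ± 0.606 for fibromodulin (*Fmod*) and -1.62 ± 0.44 for osteoglycin (*Ogn*). With any library left out, 6 to 8 members had a call. With the ciliary score (the mean level of that list) as a covariate, 3 had a call, and the values of *Dcn* (-0.65), *Fmod* (-0.74) and *Ogn* (-0.19) were no longer called. With the astrocyte score, 3 had a call, and the same genes lost theirs at -0.69, -1.76 and -1.21. With both scores 1 had a call, and *Fbln1* (-0.67) and *Islr* (-1.69) lost theirs too.

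Collagen genes, which fibroblasts and vascular cells express, had a called negative difference in 13 of 28 tested members of 31 (against 9.54% of all tested genes). The medians were 0.67 in WT and -0.51 in App NL-G-F animals. The calls were in 5 of 8 fibrillar collagens and in 8 of 20 basement membrane and other collagens. Among the 15 tested members without a call were the other chain of type I collagen, type III collagen and other chains of type VI. The summed level of the list overlapped in WT mice (608.1 to 700.1 CPM with veh, 666.8 to 758.3 with BRICHOS). It was separated in App NL-G-F mice (364.4 to 410.6 and 316.9 to 354.4 CPM). The mean log2 CPM of the list was separated in both strains. *Col1a2*, a chain of type I collagen, was at 3.22, 4.39 and 5.81 CPM in WT veh, 9.39, 12.1 and 13.9 in WT BRICHOS, 3.63, 6.04 and 3.70 in App NL-G-F veh and 2.65, 1.86 and 3.32 in App NL-G-F BRICHOS libraries. The strains overlapped with veh and lay apart with treatment, and both groups of each strain were separated (difference -2.18 ± 0.407, adjusted p = 0.151). *Col6a2* (-2.26 ± 0.56) and *Col12a1* (-2.13 ± 0.559) rose in WT mice without a called change in App NL-G-F mice. *Col12a1* lost its call with the ciliary score as a covariate (-1.73) or with both scores (-1.39). The number of called collagens was 7 without WT veh replicate 2, 8 without WT BRICHOS replicate 3 and 7 without App NL-G-F BRICHOS replicate 2.

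Choroid plexus genes had a negative difference in all 14 members (median -1.79), called in 7 (against 9.54% of all tested genes). The number of calls depended on which libraries entered the fit. The mean log2 CPM of the list was highest in replicate 3 of every group. In these libraries it was 5.90 (WT veh), 6.38 (WT BRICHOS), 4.96 (App NL-G-F veh) and 3.86 (App NL-G-F BRICHOS). With the replicate number as a block, all 14 members were called. *Ttr*, encoding the thyroxine carrier transthyretin, was at 841, 802 and 3679 CPM in WT veh, 3051, 3764 and 6415 in WT BRICHOS, 980.1, 599 and 1834 in App NL-G-F veh and 786, 611 and 905 in App NL-G-F BRICHOS libraries. WT veh replicate 3 lay among the treated WT libraries. The difference of *Ttr* was -1.88 ± 0.81 (adjusted p = 0.316), and its call was lost without WT veh replicate 1 or 2, WT BRICHOS replicate 3, App NL-G-F veh replicate 3 or App NL-G-F BRICHOS replicate 1, 2 or 3, with values from -2.02 to -1.35. The number of called members was 14 without WT veh replicate 3 and 13 without App NL-G-F veh replicate 2. It was 4 without App NL-G-F BRICHOS replicate 1 and 3 without WT BRICHOS replicate 2. It was 1 without WT veh replicate 1 or 2, WT BRICHOS replicate 3 or App NL-G-F BRICHOS replicate 2, and 0 without App NL-G-F veh replicate 3. With the mean level of the ciliary genes as a covariate, 0 were called and the median was 0.609.

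Endothelial genes fell in App NL-G-F mice with no called change in WT mice. Treatment lowered 16 of 18 endothelial genes in App NL-G-F mice (against 7.67% of all tested genes), with a median of -0.68. It changed 0 in WT mice at p under 0.05 (against 6.55% raised and 4.83% lowered), with a median of -0.10. A called negative difference was found in 10 (against 9.54%), with a median of -0.57. *Slco1a4*, an organic anion transporter of the blood-brain barrier, was at 89.5, 94.9 and 93.4 CPM in WT veh, 110.1, 76.9 and 97.0 in WT BRICHOS, 50.5, 67.9 and 44.2 in App NL-G-F veh and 32.3, 29.8 and 29.3 in App NL-G-F BRICHOS libraries. The WT groups overlapped and the App NL-G-F groups did not (difference -0.86 ± 0.212, adjusted p = 0.157). *Cdh5*, the endothelial cadherin, had a difference of -0.69 ± 0.258 (adjusted p = 0.258), and the call was lost without App NL-G-F veh replicate 2 (-0.51) or with the astrocyte score as a covariate (-0.76). The number of called endothelial genes was 3 without WT veh replicate 1, 4 without WT veh replicate 3, 2 without WT BRICHOS replicate 1, 1 without App NL-G-F veh replicate 2, 4 without App NL-G-F BRICHOS replicate 1 and 5 without App NL-G-F BRICHOS replicate 2.

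Mural cells are the pericytes and smooth muscle cells around vessels. Their genes had a called negative difference in 8 of 16 tested members of 17 (against 9.54% of all tested genes), among them *Cald1*. Treatment raised 4 in WT mice (against 6.55%) and lowered 6 in App NL-G-F mice (against 7.67%), with medians of 0.41 and -0.49. *Pdgfrb*, the platelet-derived growth factor receptor of pericytes, was at 18.8, 17.4 and 18.6 CPM in WT veh, 28.8, 21.5 and 21.5 in WT BRICHOS, 18.1, 20.7 and 12.4 in App NL-G-F veh and 10.7, 5.63 and 10.3 in App NL-G-F BRICHOS libraries. The veh-treated strains overlapped, all other pairs of groups were separated, and the difference was -1.34 ± 0.331 (adjusted p = 0.157). With any library left out, 6 to 12 mural genes had a call. Of 8 genes of oligodendrocyte precursors, 3 had a called negative difference (against 9.54% of all tested genes). *Vcan*, encoding the proteoglycan versican, was at 3.63, 2.19 and 3.28 CPM in WT veh, 2.90, 7.38 and 15.4 in WT BRICHOS, 4.21, 5.12 and 4.89 in App NL-G-F veh and 1.81, 2.56 and 2.11 in App NL-G-F BRICHOS libraries (difference -2.63 ± 0.665). Its increase in WT mice came from 2 of 3 libraries, and its call was lost with the astrocyte (-1.97) or the ciliary score (-0.99) as a covariate. The count of 3 was 1 without WT veh replicate 2, without WT BRICHOS replicate 3 or without App NL-G-F veh replicate 3.

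Receptors, ligands and targets of Wnt and Notch signalling had a called negative difference in 10 of 28 tested genes of 29 (against 9.54% of all tested genes). The medians were 0.12 in WT and -0.31 in App NL-G-F animals. These pathways act in vascular and glial cells as well as in microglia. *Axin2*, a target and feedback inhibitor of Wnt signalling, was at 7.94, 9.96 and 7 CPM in WT veh, 11.4, 10.8 and 11.5 in WT BRICHOS, 8.68, 11.2 and 6.22 in App NL-G-F veh and 4.58, 4.41 and 4.31 in App NL-G-F BRICHOS libraries. The veh-treated strains overlapped and the treated strains were fully separated (difference -1.40 ± 0.275, adjusted p = 0.151). *Hey2*, a target of Notch signalling, also had opposite effects (-1.9 ± 0.547). The Wnt receptor *Fzd6* (-1.07 ± 0.219) and *Nrarp*, a feedback inhibitor of Notch (-1.14 ± 0.383), fell in App NL-G-F mice without a called change in WT mice. With the astrocyte score as a covariate, the difference of *Nrarp* was -0.23 and was not called. *Hey2* lost its call with that score (-1.52) and with the ciliary score (-1.62). With any library left out, 7 to 11 members had a call.

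Together, the ciliary, choroid plexus, astrocyte, collagen, fibroblast, neuronal, oligodendrocyte, precursor, endothelial and mural lists held 211 tested genes, of which 105 (49.8%, against 9.54% of all tested genes) had a called negative difference. Selection by CD11b enriches for myeloid cells, and the summed levels of the astrocyte and ciliary lists are therefore given beside the differences. The astrocyte list summed to 952 to 1219 CPM in WT veh, 958.4 to 1985 in WT BRICHOS, 2441 to 7610 in App NL-G-F veh and 1142 to 3217 in App NL-G-F BRICHOS libraries, with 0 of 25 genes at 0. The ciliary list summed to 197.2 to 262.4, 274.2 to 407.1, 146.3 to 178.4 and 132.9 to 147.7 CPM in the same order of groups. With the mean level of the astrocyte list as a covariate, the count of 180 genes with opposite effects became 53, and with that of the ciliary list 96. What part the share of these cells had in each gene's difference was not tested.

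**Figure D4:**
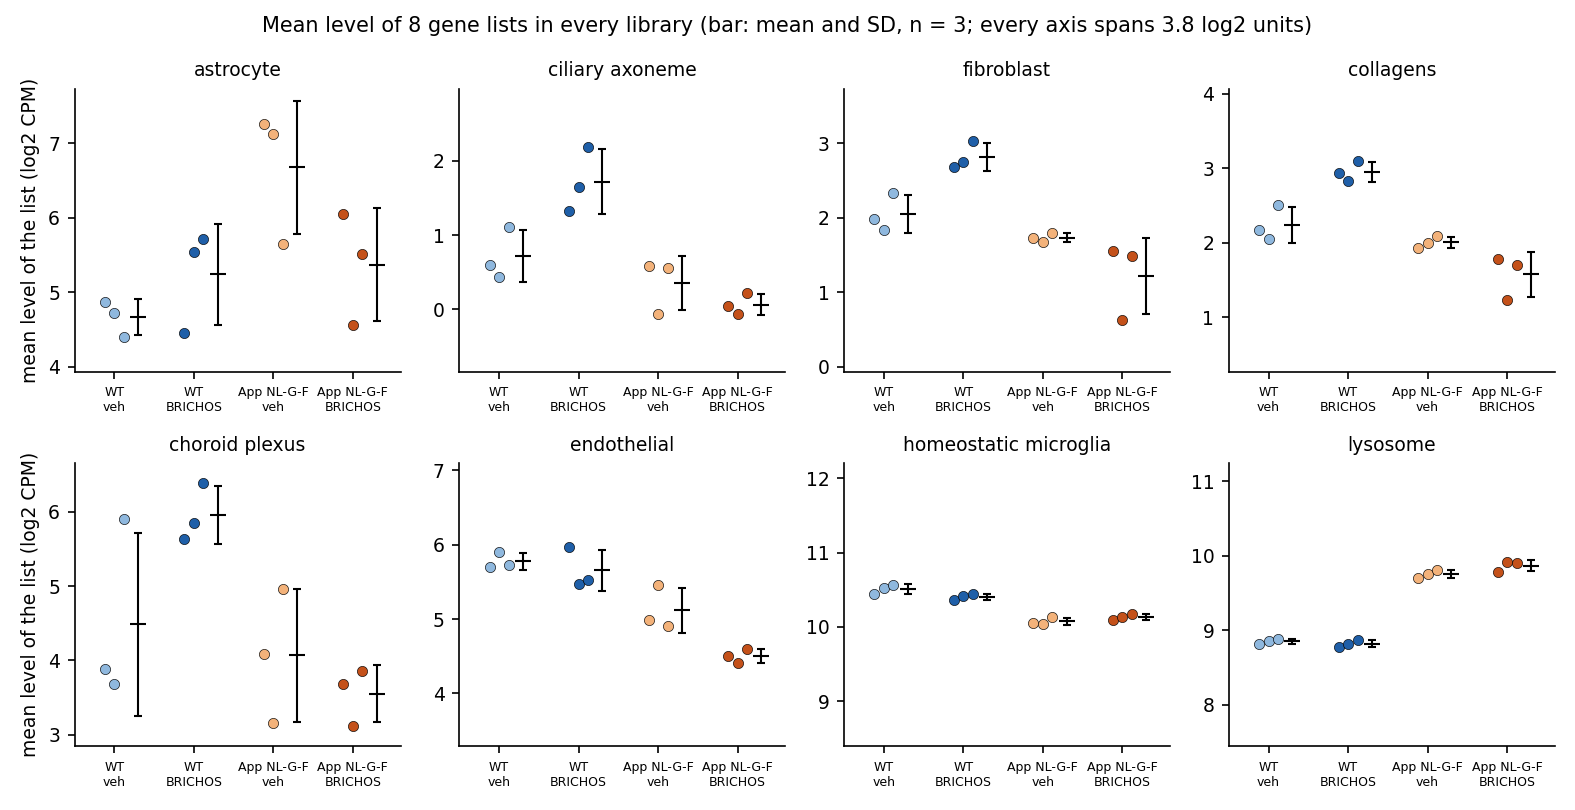
Mean log2 CPM of 8 gene lists in each of the 12 libraries, with the mean and SD (n = 3) of each group beside the points. The axes cover the same number of log2 units in every panel. The ciliary, fibroblast and collagen lists were higher in treated than in veh-treated WT libraries, the astrocyte list was highest in 2 of 3 veh-treated App NL-G-F libraries, and the homeostatic and lysosomal lists moved little with treatment.

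Macrophages of the brain borders are myeloid and are also selected by CD11b. Of 12 of their genes, treatment raised 8 in WT mice (against 6.55% of all tested genes), with a median of 0.46. It changed 0 in App NL-G-F mice (against 3.18% raised and 7.67% lowered), with a median of 0.03. A called negative difference was found in 4 (against 9.54%). *Cd163*, the haemoglobin scavenger receptor, was at 49.4, 45.4 and 55.6 CPM in WT veh, 69.9, 72.4 and 68.5 in WT BRICHOS, 23.4, 21.1 and 27.6 in App NL-G-F veh and 22.8, 19.7 and 26.5 in App NL-G-F BRICHOS libraries. The WT groups were separated and the App NL-G-F groups overlapped (difference -0.55 ± 0.169, adjusted p = 0.209), and the call was lost with the ciliary score as a covariate (-0.22). *Lyve1*, a hyaluronan receptor, had a difference of -0.63 ± 0.228 (adjusted p = 0.247), and the call was lost without WT BRICHOS replicate 2 (-0.50) or App NL-G-F BRICHOS replicate 2 (-0.52), and with the astrocyte (-0.64) or the ciliary score (-0.67). The number of called members was 8 without App NL-G-F veh replicate 2.

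Microglial genes had small differences of the other sign. Of 20 homeostatic genes, 6 had a called positive difference (against 5.23% of all tested genes), with medians of -0.12 in WT and 0.05 in App NL-G-F animals. *Golm1*, which encodes a Golgi membrane protein, was the 1 member with opposite effects called in both strains. It was at 804, 836 and 866 CPM in WT veh, 759, 761 and 773 in WT BRICHOS, 628, 612 and 645 in App NL-G-F veh and 675, 684 and 674 in App NL-G-F BRICHOS libraries. No group overlapped another (difference 0.24 ± 0.065, adjusted p = 0.172). With the astrocyte score as a covariate, *Golm1* (0.20), *Tgfbr1* (0.17) and *Siglech* (0.18) were not called. The type I TGF-β receptor *Tgfbr1* had a difference of 0.22 ± 0.0842 (adjusted p = 0.261), which lost its call without App NL-G-F veh replicate 2 (0.18) or App NL-G-F BRICHOS replicate 3 (0.19). The lectin *Siglech* had one of 0.26 ± 0.102 (adjusted p = 0.267), which lost its call without WT veh replicate 3 (0.25), WT BRICHOS replicate 1 (0.22) or App NL-G-F veh replicate 2 (0.23). The growth factor receptor *Csf1r* was between 7706 and 8388 CPM in veh-treated WT and between 6317 and 6555 CPM in App NL-G-F BRICHOS libraries, with a difference of 0.14 ± 0.09 (adjusted p = 0.5). *Csf1r* was called with DESeq2's Wald test (0.16). The number of called homeostatic genes was 10 without WT veh replicate 1 and 1 without App NL-G-F veh replicate 2. It was 3 without WT veh replicate 2 or App NL-G-F veh replicate 1, and 2 without WT veh replicate 3, WT BRICHOS replicate 1 or App NL-G-F BRICHOS replicate 3.

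Disease-associated microglia are the state found around plaques. Of their 31 genes, 30 were higher in App NL-G-F than WT mice with veh (against 24.3% of all tested genes) and 31 with treatment (against 24.1%). Their median difference was small, although single members ranged from -0.74 to 1.86. A called positive difference was found in 5 (against 5.23%) and a called negative one in 1 (against 9.54%). Counting either direction this was 19.4%, near the 14.8% of all tested genes, and the median was 0.21. *Cd9*, a tetraspanin, was at 579.6, 608 and 664 CPM in WT veh, 547, 542 and 536 in WT BRICHOS, 1793, 1809 and 1724 in App NL-G-F veh and 1898, 1923 and 1878 in App NL-G-F BRICHOS libraries. Both pairs of groups were separated in opposite directions, but the App NL-G-F effect was not called (0.10 ± 0.0567, adjusted p = 0.599), and the difference was 0.29 ± 0.0803 (adjusted p = 0.178). *Trem2*, the lipid receptor needed for this state, had a difference of 0.29 ± 0.107 (adjusted p = 0.255), and the call was lost without WT veh replicate 3 (0.25) or with the astrocyte score as a covariate (0.24). The member with a negative difference was *Lilrb4a*, an inhibitory receptor of myeloid cells. It was at 42.0, 34.9 and 37.5 CPM in WT veh, 61.9, 75.2 and 68.7 in WT BRICHOS, 197, 226 and 207 in App NL-G-F veh and 226, 268 and 186 in App NL-G-F BRICHOS libraries. It rose in WT mice from a level far below that of App NL-G-F mice (0.85 ± 0.126), and the difference was -0.74 ± 0.174 (adjusted p = 0.157). Its counts are uncertain, as it has a near-identical paralog.

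The called differences of lysosomal and cell cycle genes had the same sign as those of the homeostatic ones. Of 30 lysosomal genes, 7 had a called positive difference (against 5.23% of all tested genes) and 0 a negative one. Counting either direction this was 23.3%, against 14.8% of all tested genes. The medians were -0.07 in WT and 0.11 in App NL-G-F animals. *Hexa*, a hexosaminidase subunit, was at 702, 806 and 778 CPM in WT veh, 688, 726 and 756 in WT BRICHOS, 2055, 2069 and 2163 in App NL-G-F veh and 2265, 2468 and 2364 in App NL-G-F BRICHOS libraries. The App NL-G-F groups were separated and the WT groups overlapped (difference 0.25 ± 0.0933, adjusted p = 0.254), and the call was lost without WT veh replicate 2 (0.21) or with the astrocyte score as a covariate (0.20). Of 27 cell cycle genes, 5 had a called positive difference (against 5.23% of all tested genes) and 0 a negative one, with medians of -0.14 and 0.12. Counting either direction this was 18.5%, near the 14.8% of all tested genes. The mean log2 CPM of the cell cycle list changed by -0.123 in WT and 0.095 in App NL-G-F mice, less than its SD within groups (0.143). The replication licensing factor *Mcm5* was at 13.8, 14.9 and 14.2 CPM in WT veh, 11.1, 12.0 and 10.4 in WT BRICHOS, 13.3, 14.2 and 14.5 in App NL-G-F veh and 16.3, 18.9 and 14.3 in App NL-G-F BRICHOS libraries. It fell in WT mice (-0.36 ± 0.11), and its increase in App NL-G-F mice missed the threshold (0.23 ± 0.109, adjusted p = 0.469), for a difference of 0.59 ± 0.154 (adjusted p = 0.167), which was not called with the astrocyte (0.43) or the ciliary score (0.39) as a covariate.

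Apart from the B cell list, the remaining lists had a smaller share of calls than the 14.8% of all tested genes. Of 39 interferon-stimulated genes, 2 had a called difference in each direction. The 2 negative ones, *Ifi203* (-0.87 ± 0.174) and *Mndal* (-0.88 ± 0.307), are neighbouring paralogs of the same family whose annotations overlap on one strand, so their counts are uncertain. *Mndal* lost its call with the astrocyte (-0.32) or the ciliary score (-0.75) as a covariate. *Ifi203* was at 11.9, 11.4 and 11.6 CPM in WT veh, 19.7, 23.2 and 21.6 in WT BRICHOS, 5.89, 5.97 and 7.85 in App NL-G-F veh and 6.84, 6.21 and 6.87 in App NL-G-F BRICHOS libraries, and thus rose in WT mice alone. Of 10 genes of antigen presentation by MHC class II, 5 rose in WT mice (against 6.55% of all tested genes) and 0 had a called difference. The invariant chain *Cd74* had WT and App NL-G-F effects of 0.78 ± 0.208 and 0.31 ± 0.206, and *H2-Ab1* of 0.94 ± 0.236 and 0.35 ± 0.231. The differences were -0.47 ± 0.292 (adjusted p = 0.483) and -0.59 ± 0.329 (adjusted p = 0.426), and neither was called with all 12 libraries. Without App NL-G-F BRICHOS replicate 2, both were called (*Cd74* -0.75, *H2-Ab1* -0.90). The list summed to 7916 CPM in that library and to 4913 and 4673 CPM in replicates 1 and 3 of its group. *H2-Ab1* was also called without App NL-G-F veh replicate 2 (-0.77), with no filter on low counts (-0.57) and with the astrocyte score as a covariate. Whether the effects are equal in both strains was therefore not decided.

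Among metabolic and stress genes, 0 of 80 ribosomal proteins had a negative and 2 a positive call, 4 of 75 subunits of oxidative phosphorylation had a negative call, and 1 of 23 cholesterol synthesis genes had a call in each direction. Of 16 chaperones of the endoplasmic reticulum 1 had a positive call, and of 9 B cell genes 2 had a negative one (against 9.54% of all tested genes). There was no called difference among 13 neuronal, 13 oligodendrocyte, 22 immediate early, 16 cytokine, 16 heat shock, 12 neutrophil, 5 erythroid and 2 tested T cell genes. *Mbp*, encoding myelin basic protein, varied widely within groups, with 7069, 10718 and 5981 CPM in WT veh, 8209, 3548 and 2644 in WT BRICHOS, 1336, 1934 and 2987 in App NL-G-F veh and 2760.1, 3536 and 2463 in App NL-G-F BRICHOS libraries. A difference of 1.21 ± 0.57 therefore missed the threshold (adjusted p = 0.352). *Mbp* was called without WT veh replicate 3 (1.38), WT BRICHOS replicate 1 (1.84) or App NL-G-F veh replicate 3 (1.56). It was also called with no filter on low counts (1.23).

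**Figure D5:**
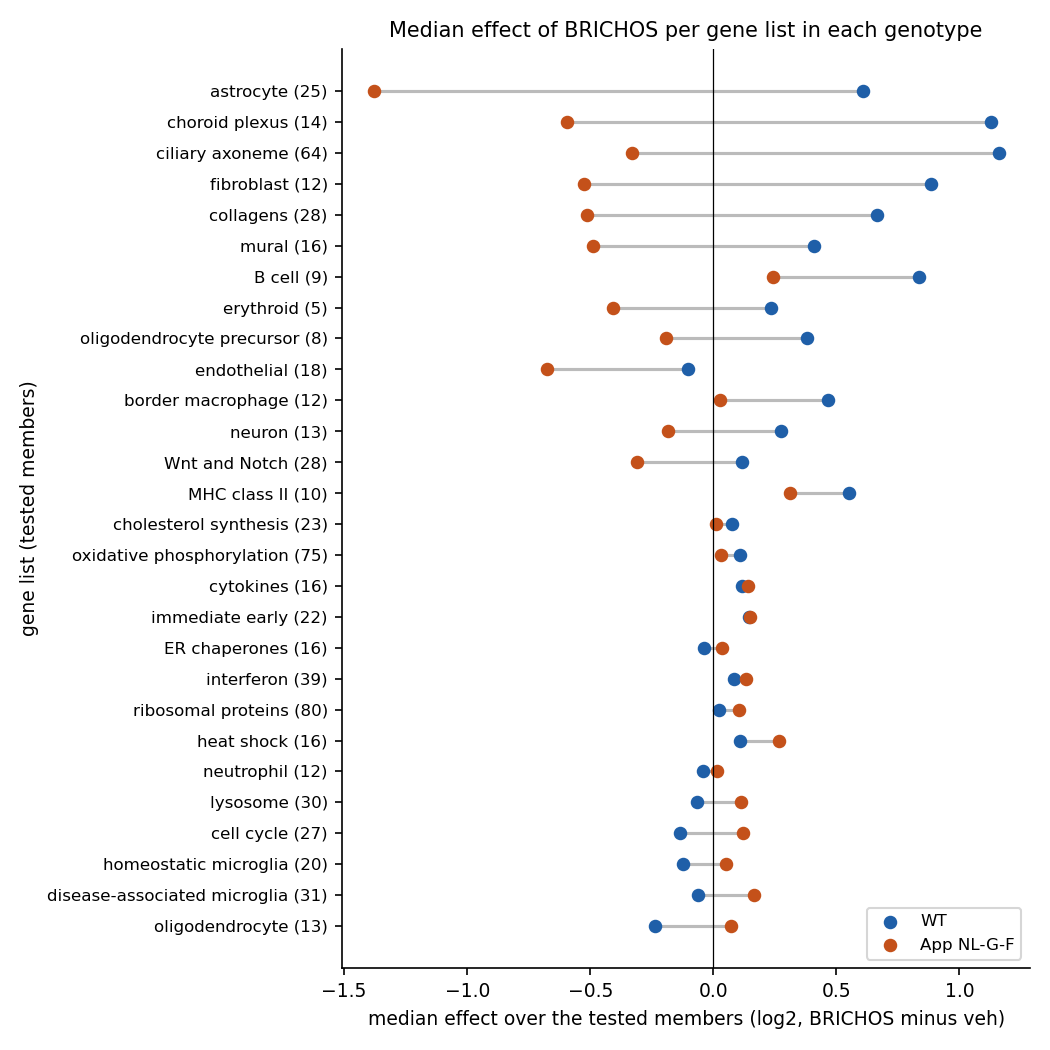
Median log2 effect of BRICHOS in each strain over the tested members of 28 gene lists, each pair joined by a line. The lines of the choroid plexus, ciliary, astrocyte, fibroblast and collagen lists cross 0 and are long, with medians above 0 in WT and below 0 in App NL-G-F mice, and those of the homeostatic, lysosomal and cell cycle lists cross 0 in the other direction and are short.

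Transcripts of *App* and *Itm2b* had no called difference. *App* had effects of 0.03 ± 0.16 in WT and 0.01 ± 0.161 in App NL-G-F animals, with a difference of -0.01 ± 0.227 (adjusted p = 0.983). *Itm2b*, the mouse gene for Bri2, was at 2538, 2828 and 2726 CPM in WT veh, 2542, 2714 and 2676 in WT BRICHOS, 3462, 3368 and 3414 in App NL-G-F veh and 3650.4, 3698 and 3648 in App NL-G-F BRICHOS libraries. Its App NL-G-F groups were separated, and the difference was 0.13 ± 0.0847 (adjusted p = 0.503). *Itm2b* was called with DESeq2's Wald test (0.15). Of the 74 genes named in the text, 35 overlap another annotated gene, 14 of them on the same strand, and reads from the shared stretches cannot be assigned with certainty.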

How the data were processed

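RNA-sequencing libraries were made with the Illumina Stranded mRNA Prep, and the strand setting used for counting is not given in the sources used here. The authors trimmed the reads, aligned them to GRCm38 and counted them per gene. The submitters' processing notes name FastQC 0.11.8, STAR 2.6.1d, featureCounts 1.5.1 and DESeq2. The deposited values are raw counts per gene without normalization, and no column of the table was left unused (0 unused columns). Of 55487 genes, 26314 had no count and 55141 were matched to a symbol of the GENCODE annotation. Limits from 3 counts cover counting error only. Within each group, every pair of libraries differed beyond sampling noise (chi-square per degree of freedom 5.54 to 33.2).

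Genes were filtered with filterByExpr (minimum count 10), scaled with TMM factors and fitted with edgeR 4.0.16 (R 4.3.3) by quasi-likelihood with 4 group means. Contrasts were tested with glmQLFTest, and p-values were adjusted by the method of Benjamini and Hochberg over the 15425 tested genes. CPM use the TMM factors, and log2 CPM a prior count of 2. Errors of log2 values are standard errors. Members and gene lists were chosen with earlier results of these data known, so lists are described by counts and medians. Named genes were those with an adjusted p-value under 0.05, the 12 and 8 genes with the lowest p-value for the difference among those with opposite effects in each direction, up to 4 members of each list (up to 12 where its share of calls was at least 2 times that of all genes), *App* and *Itm2b*. Predicted genes were not named, and a few of the genes that the rule takes are not described. Alternatives were DESeq2's size factors, DESeq2 1.42.0 (Wald test), 2 other filters, a cutoff of 1 on absolute log2 values, a block for the replicate number, a covariate for the astrocyte or ciliary list score, and each of the 12 libraries left out. Both scores together were added after the data were seen. The fit was tested on simulated data. Promoters were searched and figures drawn with Python 3.11.15, pandas 2.3.3 and matplotlib 3.10.9.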

Additional observations from a re-analysis of the deposited data

Results flagged for a closer look

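*Cald1* is listed here because the test of the difference itself, adjusted over all 15425 tested genes, showed that its treatment effects differed between the strains. The effect in App NL-G-F mice was lower than that in WT mice by a log2 difference of -1.12 (adjusted p = 0.00834). All 3 treated WT libraries were above the veh-treated WT libraries, and all 3 treated App NL-G-F libraries were below the veh-treated ones. No other gene met this rule at an adjusted p-value under 0.05.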

How the results depend on the processing

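Counts below are of genes, or of list members, whose difference between the treatment effects passed an unadjusted p-value under 0.05 unless an adjusted p-value is named. Of the 67 named genes that passed, 67 did so with DESeq2's size factors and with no filter on low counts, and 66 with DESeq2's Wald test, which lost *Ttr*. With each of the 12 libraries left out, 60 passed every time, and *Cdh5*, *Hexa*, *Lyve1*, *Siglech*, *Tgfbr1*, *Trem2* and *Ttr* were lost with at least 1 library out. Calls were lost for 17 named genes with the ciliary score as a covariate, for 17 with the astrocyte score and for 21 with both, and *Ttr* reversed with the ciliary score and with both. The *Cald1* difference was negative under every alternative run for it, and the cause of the changes below was not tested.

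DESeq2's Wald test gave 244 genes at an adjusted p-value under 0.05, against 1 in edgeR, and called 3 choroid plexus members lower, against 7. With no filter these counts were 107 and 13. Requiring 10 counts in every library, which tests fewer genes, left 537 genes called higher (807 before), 16 ciliary members, 7 collagens, 3 homeostatic microglial genes and a B cell median of 0.0876. With an absolute log2 value over 1 required as well, 1039 genes passed, 32 of them higher, and 50 and 0 genes had opposite effects (up and down in WT).

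With the ciliary list score as a covariate, 1424 genes passed, 729 lower, and 0 at an adjusted p-value under 0.05. Opposite effects were found for 96 genes (up in WT) and 86 genes (down in WT). Of the list members, 0 choroid plexus (median 0.609, *Ttr* 0.631), 1 astrocyte, 6 collagen, 3 fibroblast, 0 oligodendrocyte precursor and 0 border macrophage genes were called lower. With the astrocyte score, 894 genes passed, 557 lower and 337 higher, 0 at an adjusted p-value under 0.05, and 53 genes had the opposite pattern that was up in WT. The members called were 12 ciliary, 3 fibroblast, 0 oligodendrocyte precursor, 3 endothelial, 3 mural, 6 Wnt and Notch, 2 border macrophage and 0 homeostatic microglial genes. With both scores, an alternative chosen after seeing the data, 894 genes passed (462 lower and 432 higher, 0 at an adjusted p-value under 0.05), and 76 genes were up in WT and down in App NL-G-F. The members called were 0 choroid plexus (median 0.0636, *Ttr* 0.0651), 5 collagen, 1 fibroblast, 0 oligodendrocyte precursor, 16 endothelial, 5 mural, 0 border macrophage and 2 homeostatic microglial genes, and the oxidative phosphorylation median was 0.0118. A covariate was not run for the list that makes its score. Calls made lower were 64.6% of all calls in edgeR with TMM factors, 59.7% with DESeq2's size factors, 51.2% with the ciliary score and 51.7% with both scores.

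Fits without 1 library gave 1713 to 2586 genes, 520 to 992 of them higher, with 0 to 90 at an adjusted p-value under 0.05. Opposite effects ranged from 95 to 258 genes up in WT and from 18 to 54 down in WT. The members called lower ranged from 0 to 14 for choroid plexus, from 7 to 13 for collagens, from 1 to 3 for oligodendrocyte precursors, from 1 to 11 for endothelial genes and from 3 to 8 for border macrophages, and those called higher from 1 to 10 for homeostatic microglia. The lowest counts of genes higher, at an adjusted p-value under 0.05 and down in WT came without WT veh replicate 2, the last 2 also without App NL-G-F BRICHOS replicate 3, and the highest of all 3 without App NL-G-F veh replicate 3.

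The replicate number as a block gave 2646 genes, 62 genes down in WT and up in App NL-G-F (29 without the block) and 14 choroid plexus members, and *Cald1* alone at an adjusted p-value under 0.05. All 67 named genes passed with the block. Deviations of same-numbered libraries from their group means correlated at -0.114 to 0.264 (mean 0.0962), with 9 of 18 pairs over 0.1, so the numbers were not taken as a pairing. By these correlations 10 of 12 libraries were closest to a library of their own number, a hint from the data and not from the design.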
